A study of Mus musculus with 12 samples.

Results

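Gene expression in the stomach was measured on 6 of the 12 arrays of the series, chosen by the organ in their labels, and all 29922 probes of these arrays were compared between 3 chitosan and 3 mock mice. Chitosan mice were injected subcutaneously with 0.2 g/kg chitosan, in the form of chitosan oligosaccharide lactate, mock mice were injected with saline, and the stomachs were collected on day 3. All were male FVB mice of 6 to 8 weeks, and all, mock mice included, were heterozygous for a PPRE transgene, in which 5 copies of the response element for peroxisome proliferator-activated receptors (PPAR) and the herpes simplex virus tk promoter drive luciferase. Each array held the RNA of 1 mouse, so 3 animals stand for each treatment. Luciferase was not analysed here, and the comparison concerns the genes of the mouse itself, at 1 dose and 1 time. The other 6 arrays hold brain RNA of 3 chitosan and 3 mock mice of the same kind.

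The stomach of the mouse has a glandular part, whose pits and glands hold mucous cells, acid-secreting parietal cells, enzyme-secreting chief cells and scattered hormone cells, and a forestomach lined by stratified squamous epithelium. Both lie on coats of smooth muscle. PPARs are nuclear receptors that bind, with the retinoid X receptor, to a pair of AGGTCA-like sites 1 base apart (PPRE), and their targets take part in fatty acid uptake, storage and oxidation. The methods describe no separation of the organ into its parts, so an intensity averages over all these cells.

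The largest differences between chitosan and mock that held on every array belonged to genes of the gland cells: Pgc (pepsinogen C, an enzyme precursor of chief cells), Ghrl (ghrelin, the hunger hormone of the gastric endocrine cells) and Tff2 (a trefoil peptide of the neck mucous cells) were lower in the chitosan group with log2 fold changes of -3.22, -3.21 and -3.0. Smooth muscle genes and a few others were higher. The promoter windows of Pgc and of Ghrl are given because these genes differed most and because the reporter in the mice reads PPRE sites. They were taken from RefSeq (GRCm38.p6) and lie at chr17:47726592-47726891 on the plus strand for Pgc and at chr6:113719862-113720161 and chr6:113719405-113719704 on the minus strand for 2 of the 4 annotated starts of Ghrl. Capitals mark TATAAA or TATATA boxes and AGGTCA, the unit of a PPRE, searched on both strands.
Pgc: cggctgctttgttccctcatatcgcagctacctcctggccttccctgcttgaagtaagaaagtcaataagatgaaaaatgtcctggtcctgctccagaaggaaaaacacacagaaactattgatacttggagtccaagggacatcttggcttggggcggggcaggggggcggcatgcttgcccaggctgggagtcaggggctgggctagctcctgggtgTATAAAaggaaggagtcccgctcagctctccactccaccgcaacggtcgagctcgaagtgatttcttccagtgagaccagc
Ghrl, upstream start: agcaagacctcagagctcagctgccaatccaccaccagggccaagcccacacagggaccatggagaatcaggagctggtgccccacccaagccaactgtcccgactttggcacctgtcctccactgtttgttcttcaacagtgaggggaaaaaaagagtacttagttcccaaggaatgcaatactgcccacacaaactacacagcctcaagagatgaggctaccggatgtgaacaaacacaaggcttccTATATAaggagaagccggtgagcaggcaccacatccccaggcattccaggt
Ghrl, downstream start: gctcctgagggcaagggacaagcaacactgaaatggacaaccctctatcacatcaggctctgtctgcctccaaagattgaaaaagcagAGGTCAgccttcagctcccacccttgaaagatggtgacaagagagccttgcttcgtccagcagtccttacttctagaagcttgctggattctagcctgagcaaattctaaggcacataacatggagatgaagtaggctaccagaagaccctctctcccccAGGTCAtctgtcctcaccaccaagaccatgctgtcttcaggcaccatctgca
In Pgc, TATAAA begins 31 bases before the annotated start, and in the downstream window of Ghrl AGGTCA begins 162 and 2 bases before it. TATATA in the upstream window of Ghrl begins 1 base before that start. Of the 36 named genes that were at least 2-fold lower whichever array was left out and did not overlap between groups, 28 had a promoter window. TATAAA was present in 6 of them (21.4%) and in 15.7% of 27025 genes, and AGGTCA was present in 3 of them (10.7%) and in 18.1% of all genes. TATATA was present in 1 of them (3.57%) and in 6.66% of all genes. The paired site AGGTCANAGGTCA was found in 0 of the 28 and in 13 of 27025 genes (0.0481%). Only this exact repeat was searched, and the element in the reporter departs from it in 1 unit and would not match. At so low a share, 0 of 28 says nothing on PPAR sites in these genes. These are matches of letters only.

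Intensities ran between 34.3 and 28367 on the 6 arrays with medians of 47 to 47.6, and only 9.52% to 10.6% of the probes of an array lay above 2 times its lowest value, so most probes were near background. A probe was taken to be above the floor when its mean over the 6 arrays exceeded 68.7, which 2926 probes (9.78%) and 2376 of 16637 genes did. Arrays held 268 to 884 distinct intensities, so that equal values on several arrays are steps of the deposited scale. Array 3 of the chitosan group had the fewest. Over the probes above the floor, the first component of the 6 arrays (54.6% of the variance) was not ordered by treatment, with scores of 21.3, 11.4 and -34.6 in the chitosan group, against -10.7, 21.7 and -9.08 in the mock group. The second component (26.4%) separated 12.9, 12.6 and 15.4 in the chitosan group from -20.3, -9.4 and -11.2 in the mock group. Chitosan array 3 therefore stood apart from the other chitosan arrays (r = 0.67 with array 1), whereas mock array 2 lay closest to them (r = 0.90 with chitosan array 1).

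The labelled organ was borne out by markers that the brain arrays lacked. Gkn2, a gastric mucous cell peptide, had 463 to 7834 in the stomach and 47.8 to 58.2 in the brain, and Actg2, the actin of visceral smooth muscle, had 1755 to 4102 in the stomach and 46.6 to 50.8 in the brain. Snap25 of neurons had 57.7 to 84.6 in the stomach and 3647 to 5976 in the brain. Defining genes of the intestine (Fabp2, Alpi, Cdx1, Cdx2, Vil1), the exocrine pancreas (Cpa1, Pnlip, Prss2, Ctrb1, Cela1, Cela2a, Cela3b) and the liver (Ttr, Apoa2, Apoc3, Fgb) stayed under the floor on all 6 stomach arrays. Gast (gastrin of the antrum) was under the floor as well. Of the 2 probes of Muc5ac (surface mucus), 1 was under the floor on all 6 arrays and the other read 72.75 on mock array 2 and stayed under it on the other 5.

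**Figure D1:**
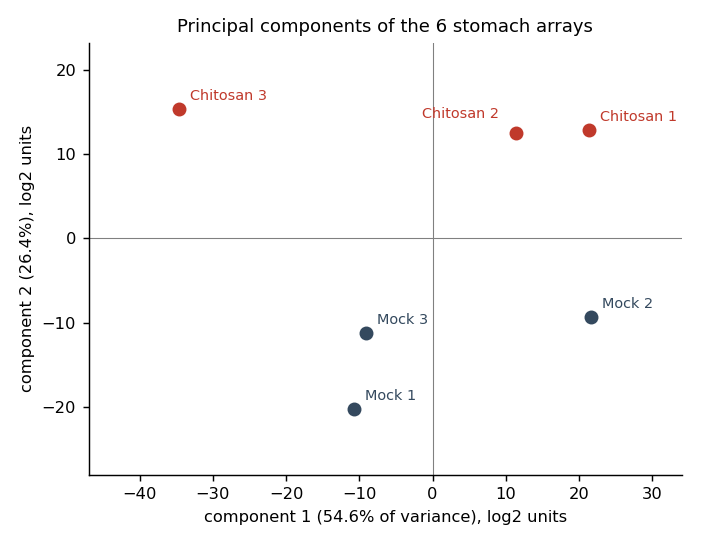
Scores of the 6 stomach arrays on the first (x axis, 54.6% of the variance) and the second component (y axis, 26.4%) of the probes above the floor, in log2 units, each point being 1 mouse. Chitosan array 3 lies at -34.6 on the x axis, away from the other 5 arrays, and the 2 treatments part on the y axis.

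Limma on the 6 stomach arrays called 0 of 29922 probes (0%) at an adjusted p of 0.05, and its smallest adjusted p was 0.097, shared by 13 probes. At an unadjusted p under 0.05, 963 probes were lower (3.22%) and 608 were higher (2.03%) in the chitosan group. A limma model of all 12 arrays, in which stomach and brain share 1 estimate of the spread, called 87 probes lower (0.291%) and 8 higher (0.0267%). In all 95 every chitosan array lay on one side of every mock array, but a small p largely brings this with it. Without chitosan array 2 the model called 50 probes, without mock array 1 it called 61, and without chitosan array 3 it called 72 lower and 52 higher. The sources used here do not state if 1 mouse gave both organs, and the model takes all arrays as independent. Of its calls, 80 of the 95 probes were under the floor on all 6 brain arrays, and the median SD within groups of the 95 was 0.17 (log2) in the stomach and 0.07 in the brain. In 70 of the 95 the SD was larger in the stomach, so the shared estimate understates the spread of the stomach for these. The SE of Apoa1, for example, was 0.46 in the 6-array fit and 0.21 in the 12-array model. Adjusted p values of the 12-array model are therefore smaller than the stomach arrays alone give, and a call by it is no call on those arrays alone. In the limma fit of 6 arrays the same 95 probes had unadjusted p of at most 0.033. Adjusted p values below come from limma, and the model is named each time. The SE of a stomach fold change is always that of the 6-array fit, also where the adjusted p is from 12 arrays. The SE of an interaction is that of the 12-array model.

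Without a test, 118 probes were at least 2-fold lower (0.394%) and 38 at least 2-fold higher (0.127%), by mean log2 values. Of these 156, 100 did not overlap between the groups (82 lower and 18 higher), set against 5.37% and 6.86% of all probes that were lower or higher without overlap. The 156 were picked by the size of the same difference, which makes overlap rarer, so this contrast is no separate support. The 2-fold difference held whichever array was left out for 59 probes, 46 lower (0.154%) and 13 higher (0.0434%). In 47 of the 156, leaving out 1 array took the difference under 0.5 on the log2 scale, and 26 of these 47 had their highest value on mock array 1. Without chitosan array 3 the probes at 2-fold numbered 128 lower and 114 higher, and without mock array 2 they numbered 174 lower and 75 higher, so the balance of directions at this fold depends on these arrays.

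**Figure D2:**
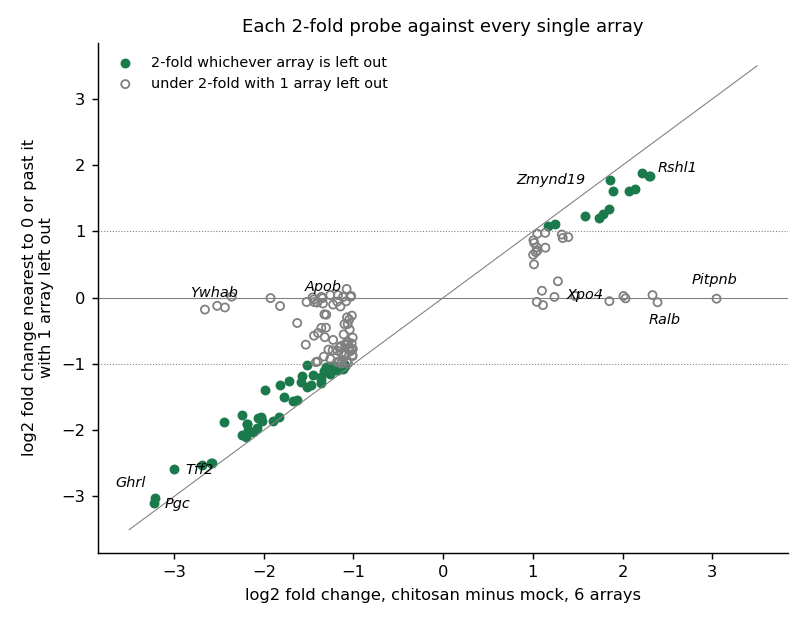
Log2 fold change (chitosan over mock) of the probes at 2-fold on the x axis, with all 6 arrays, against the value nearest to 0, or past it, with 1 array left out on the y axis. Each point is a probe, filled where it stays at 2-fold, as 59 of 156 do, dotted lines mark 2-fold, and 47 probes come under 0.5 in size.

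Chief cell genes above background were lower on the chitosan arrays, apart from 1 of 6. Pgc had 218, 219 and 293 on the chitosan arrays, against 2586, 1644 and 2669 on the mock arrays, or 243 ± 42.9 and 2299.9 ± 569 (SD, n = 3 each). The lowest mock array was 5.61-fold above the highest chitosan array. The log2 fold change was -3.22 (SE 0.43), with an adjusted p of 0.12 in limma on 6 arrays and of 0.00066 in the limma model of 12 arrays. Gif (gastric intrinsic factor, the carrier of vitamin B12, made by chief cells in the mouse) had 214, 228 and 299 in the chitosan group, against 1263, 1042 and 1058 in the mock group. Chia, the acidic mammalian chitinase, cuts chitin, the polymer from which chitosan is made, and had 299, 294 and 166 in the chitosan group, against 929, 1445 and 1033 in the mock group. Both differed by -2.19 and were called by limma over 12 arrays (adjusted p = 0.0022 for Gif and 0.0097 for Chia), but not over 6 (adjusted p = 0.44 and 0.55). Fewer cells of a type and less RNA per cell cannot be told apart in whole organs, here and in what follows. Xbp1, a transcription factor of secretory cells, overlapped between groups, with 1299.6, 1522 and 2329 in the chitosan group, against 2445, 2069 and 3004 in the mock group. Of 14 measured genes of the chief cell list 8 were lower and 6 higher, with a median of -0.04 beside 0.01 for all genes, and 6 were above the floor. The 4 at 2-fold, which include Agr2 (described next), were all lower and called over 12 arrays, against 0.589% of all genes at 2-fold lower and 0.427% called lower.

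Mucous cell genes took part as well. Agr2, a disulfide isomerase needed for mucin folding, had 68.3, 50.8 and 48.7 on the chitosan arrays, which is close to background, against 318, 319 and 365 on the mock arrays. It had the smallest adjusted p of all probes in the limma model of 12 arrays (1.8e-05), with 0.099 in limma on 6 arrays and a log2 fold change of -2.59 (SE 0.31). Tff2 had 274, 269 and 114 in the chitosan group, against 1299.6, 2151 and 1522 in the mock group. The log2 fold change was -3.0 (SE 0.55 in the 6-array fit), and the 12-array limma model called it (adjusted p = 0.0031). Chitosan array 3 was the lowest for Tff2, and the other chitosan arrays were also under all mock arrays. Gkn2 (gastrokine 2, of the surface mucous cells) had 1359.6, 1153 and 463 in the chitosan group, against 3105, 7834 and 3178 in the mock group. It did not overlap but was not called by limma over 12 arrays (adjusted p = 0.14). Its neighbour Gkn1 overlapped widely, with 929, 434 and 57.7 in the chitosan group, against 128, 1903 and 163 in the mock group, and its difference of -0.26 (SE 1.35) carries no direction. Sult1c2, a sulfotransferase, was even within both groups, at 106, 113 and 109 in the chitosan group, against 429.6, 394 and 398 in the mock group (12-array limma adjusted p = 0.00085). Gcnt3, which branches mucin sugars, and Muc1, a membrane mucin, were lower without overlap, with log2 fold changes of -1.33 and -0.60. A dim second probe of Gcnt3 overlapped between groups (-0.35). Of 26 measured genes of the list, 22 were lower and 4 higher (median -0.20), 12 were lower without overlap and 0 higher, against 6.09% and 6.78% of all genes. The 9 above the floor had a median of -1.53, which lay between -1.91 and -1.19 when 1 array was left out.

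Genes of acid secretion by parietal cells were lower as well. Atp4a, the catalytic subunit of the proton pump, had 153, 141 and 45.1 in the chitosan group, against 466, 695 and 488 in the mock group. Its log2 fold change was -2.45 (SE 0.62 in the 6-array fit), with an adjusted p of 0.021 in the limma model of 12 arrays. Its second probe read 50.8, 60.5 and 52.8 in the chitosan group, against 74.2, 119 and 81.5 in the mock group, also without overlap but with -0.72 a smaller difference. Atp4b, the partner subunit of the pump, had 413, 334 and 140.1 in the chitosan group, against 708, 1019 and 959 in the mock group, and was not called (12-array limma adjusted p = 0.13). For both subunits chitosan array 3 gave the lowest value. Kcne2 forms with Kcnq1 the potassium channel that the pump needs. Kcne2 had 55.3, 50.8 and 45.1 in the chitosan group, against 283, 158 and 299 in the mock group (12-array limma adjusted p = 0.00061). Kcnq1 had 53.5, 60.5 and 57.7 in the chitosan group, against 81.5, 74.1 and 81.5 in the mock group (adjusted p = 0.04 in the same model), a small but non-overlapping difference near the floor. The dimmer second probe of Kcnq1 gave -0.12 with overlapping groups (adjusted p = 0.79 in that model). Clic6, an intracellular chloride channel protein, and Car9, a carbonic anhydrase, were also called lower by that model (log2 fold changes -1.16 and -1.37, adjusted p = 0.0058 and 0.035). Of 28 measured parietal cell genes 19 were lower and 9 higher, and 6 were called lower, Gif among them because chief and parietal lists share it, and 0 higher, against 0.427% and 0.0421% of all genes.

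Among hormone genes, Ghrl stood out. It had 248, 342 and 386 on the chitosan arrays, against 2864, 2669 and 3376 on the mock arrays, or 325 ± 70.3 and 2969.8 ± 365 (SD, n = 3 each). All 3 chitosan arrays were at least 6.92-fold under the lowest mock array, the widest gap among the genes described here. The log2 fold change was -3.21 (SE 0.34), with an adjusted p of 0.097 in limma on 6 arrays and 0.00082 in the model of 12. Sst (somatostatin, which restrains acid and gastrin secretion) had 64.3, 49.3 and 48.7 in the chitosan group, against 138, 268 and 166 in the mock group, with no overlap but no call (12-array limma adjusted p = 0.23). Most of the 39 measured hormone cell genes were at background, with 20 lower and 19 higher. Lower without overlap were 7 and higher 2, against 6.09% and 6.78% of all genes, and 1 was called lower, against 0.427%.

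**Figure D3:**
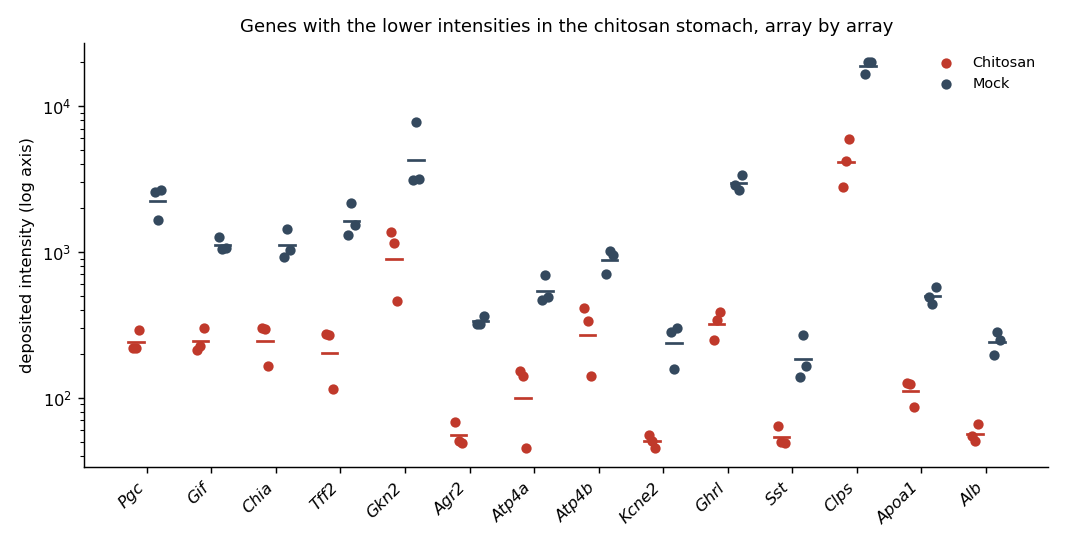
Intensity on each stomach array (log scale) of gland cell and other genes that were lower after chitosan, with chitosan arrays left of mock arrays and 1 point for each mouse. Ghrl lay at 248 to 386 in the chitosan group, against 2669 to 3376 in the mock group, and the groups of Pgc and Agr2 do not overlap either. Bars are means of the log values.

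Lipid-handling genes were lower only in part. Clps (colipase, the cofactor of pancreatic lipase) was among the brightest genes of the stomach, with 2783, 4233 and 5976 in the chitosan group, against 16672, 20076 and 20076 in the mock group. Its log2 fold change of -2.19 (SE 0.24) had an adjusted p of 0.097 in limma on 6 arrays and 0.025 over 12. Clps is counted with pancreatic enzymes, of which 17 of 25 were lower and 8 higher (median -0.02). The list also holds Tff2, and its summed intensity was 4265 to 7152 in the chitosan group, against 19271 to 24034 in the mock group. The defining pancreatic genes named above were at background on all 6 arrays. The summed level is mostly that of Clps. Pla2g12b, a secreted phospholipase family member, had 50.8, 47 and 45.1 in the chitosan group, against 137, 102 and 131 in the mock group (adjusted p = 0.097 in limma on 6 arrays and 0.00016 over 12). Pla2g1b, the pancreatic phospholipase A2, had 198, 141 and 47.5 in the chitosan group, against 294, 763 and 372 in the mock group. Its chitosan array 3 was at background and its groups did not overlap, without a call (12-array limma adjusted p = 0.17).

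Lpl, a PPAR target, is the lipase that releases lipoprotein fatty acids to tissues, and had 58.7, 60.5 and 48.7 on the chitosan arrays, against 116, 117 and 126 on the mock arrays (12-array limma adjusted p = 0.0037). A dim second probe of Lpl differed by only 0.07. Adipoq (adiponectin) and Cfd (adipsin), secreted by fat cells, were called lower by the same model, with log2 fold changes of -0.75 and -0.76 at intensities up to 106. Fabp4 and Plin1, which also define fat cells, were at background on every array. Over the 29 measured adipocyte and PPAR gamma genes 15 were lower and 14 higher (median -0.02). Lower without overlap were 6 and higher 0, against 6.09% and 6.78% of all genes, and 3 were called lower, against 0.427%. Fat cell RNA as a part of these differences was not tested, and the summed intensity of the list was 2564 to 2751 in the chitosan group, against 3041 to 4052 in the mock group. Targets of PPAR alpha and delta gave 16 lower and 14 higher (median -0.02) with 0 called, and fatty acid oxidation gave 14 lower and 16 higher (median 0.01) with 0 called. Thrsp, which promotes fat synthesis, and Scd1, the stearoyl-CoA desaturase, had log2 fold changes of -1.51 and -1.30. Neither was called, and in Scd1 the groups overlapped, with 249, 328 and 545 in the chitosan group, against 1153, 515 and 1121 in the mock group. Lists of cholesterol synthesis and of glycolysis had 0 genes at 2-fold and 0 called. The lists with 0 called held 17 to 30 measured genes. At that size, 0 is no different from the shares of all genes, 0.427% called lower and 0.589% at 2-fold lower.

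A set of genes best known from the liver was lower with the gland genes. Apoa1, the main protein of high-density lipoprotein, had 126, 125 and 86.1 in the chitosan group, against 494, 441 and 575 in the mock group, with a log2 fold change of -2.18 (SE 0.46, 12-array limma adjusted p = 0.00083). Alb (albumin) had 54.3, 50.8 and 66.3 in the chitosan group, against 197, 281 and 249 in the mock group (12-array limma adjusted p = 0.00015). Serpinc1 (antithrombin) had 48.6, 47.9 and 47.5 in the chitosan group, against 84.3, 75.5 and 97.7 in the mock group, a smaller step that the model also called. The defining liver genes listed above were at background in both groups. Hamp2 (hepcidin 2) and Mup3 (a major urinary protein), also known from the liver, were lower without overlap, with means under the floor. Hamp2 had 45.6, 43.9 and 41.5 in the chitosan group, against 73.3, 110 and 79.1 in the mock group. Mup3 had 40.8, 40.6 and 42.7 in the chitosan group, against 55.3, 58 and 54.1 in the mock group (12-array limma adjusted p = 0.0045 and 0.004). Of 30 lipoprotein and plasma protein genes 23 were lower and 7 higher (median -0.07). Lower without overlap were 7 and higher 1, against 6.09% and 6.78% of all genes, and 2 were called lower, against 0.427%. Apoa1 also stands in the list of intestinal enterocytes, whose summed intensity was 1409.8 to 1436 in the chitosan group, against 1892 to 1980.5 in the mock group. Its defining genes were at background, but of its 28 measured genes 19 were lower and 9 higher. Lower without overlap were 5 and higher 2, against 6.09% and 6.78% of all genes, and 1 was called lower, against 0.427%. The 3 above the floor were all lower. Lgals4 (galectin 4) of this list was lower on both bright probes, with log2 fold changes of -1.05 and -0.62. RNA of liver or intestine as a part of these differences was not tested. The transcription factors Foxa3 and Foxa1 of the endoderm and Elf3 of surface epithelia were called lower too. Foxa3 had 58.7, 49.3 and 48.7 in the chitosan group, against 114, 93.8 and 119.8 in the mock group (12-array limma adjusted p = 0.00087). Foxa1 and Elf3 were near the floor, with log2 fold changes of -0.50 and -0.73, and the second probe of Elf3 gave -0.50.

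Apob (apolipoprotein B) met the 2-fold criterion on average (-1.34, SE 0.92) through 1 array. Its intensities were 37, 39.6 and 39.3 in the chitosan group, against 555, 41 and 41 in the mock group, and without mock array 1 the difference was -0.09.

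A further pair of genes with large differences was Glod5, of the glyoxalase domain family, and Gsdma2, a gasdermin of the gut surface. Glod5 had 62.8, 87.6 and 57.7 in the chitosan group, against 509.5, 305 and 541 in the mock group. Gsdma2 had 72.1, 82.6 and 47.5 in the chitosan group, against 287, 259 and 262 in the mock group. Both were at least 3.13-fold apart between the closest arrays and had an adjusted p of 0.0004 in the limma model of 12 arrays.

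Several genes of innate defence were dim and lower. S100a8, a calprotectin subunit of neutrophils, had 48.6, 45 and 42.7 on the chitosan arrays, against 88.8, 77.8 and 94.3 on the mock arrays. Pglyrp1, a peptidoglycan-binding protein, had 45.6, 45 and 42.7 on the chitosan arrays, against 75.8, 80.3 and 89.7 on the mock arrays. Both shared the smallest adjusted p of limma on 6 arrays (0.097) and were called over 12 (adjusted p = 0.0004 and 0.00066), with chitosan values at background. Ly96, the coreceptor of Tlr4 for endotoxin, had 69, 63.8 and 52.8 in the chitosan group, against 109, 118 and 102 in the mock group (12-array limma adjusted p = 0.017). Tlr4 itself was under the floor on all 6 arrays (-0.31, adjusted p = 0.04), and its other probe gave 0.12. Cd68, a lysosomal protein of macrophages, was lower on both of its probes (-0.46 and -0.48). Of 63 inflammatory mediators 31 were lower and 32 higher with a median of 0.00, and 2 were called lower, against 0.427% of all genes. The 6 of them above the floor were all lower (median -0.14), where 49.2% of all genes above the floor were lower. Of 25 neutrophil and mast cell genes 14 were lower and 11 higher with 1 called lower, against 0.427% of all genes. Macrophage genes numbered 17 lower and 18 higher, with summed intensities of 1823 to 1921 in the chitosan group, against 1834 to 1845 in the mock group. T and NK cells and B and plasma cells had no list gene above the floor. B2m, the light chain of class I molecules, had 98.3, 66.5 and 124 in the chitosan group, against 174, 225 and 208 in the mock group, and was not called (12-array limma adjusted p = 0.16).

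Many subunits of the respiratory chain, which makes the proton gradient for ATP in mitochondria, were lower. Of 65 measured subunits 53 were lower and 12 higher, with a median of -0.28, while among all 16637 genes 7337 were lower and 9300 higher, with a median of 0.01. Lower without overlap were 19 of the 65 and higher 2, against 6.09% and 6.78% of all genes. Within the 35 subunits above the floor the median was -0.57, and it lay between -0.60 and -0.43 with 1 array left out. Cox7a2 belongs to cytochrome c oxidase. It had 95.4, 97.6 and 50.3 in the chitosan group, against 210.2, 236 and 252 in the mock group. Among the 65 it was the 1 subunit called on its brightest probe (12-array limma adjusted p = 0.038), against 0.427% of all genes called lower. Ndufs4 of complex I had 509.5, 530.3 and 508 in the chitosan group, against 1209, 1092 and 1424 in the mock group (adjusted p = 0.066 in that model, not called), and its dim second probe gave -0.19. Cox6a1 was lower on both bright probes, with log2 fold changes of -0.73 and -0.98. The second of these did not overlap (889, 953 and 917 in the chitosan group, against 1977, 1563 and 1935 in the mock group) and was called (adjusted p = 0.015). Measured on each array as the median deviation of the list's genes from their mean, the shifts were -0.08, -0.19 and -0.65 in the chitosan group, against 0.19, 0.50 and 0.21 in the mock group, so chitosan array 3 was far below the other chitosan arrays.

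Mitochondrial ribosomal proteins were lower in 42 of 70 (median -0.05), with 11 lower and 1 higher without overlap, against 6.09% and 6.78% of all genes. Of these 70, 1 was called lower, against 0.427% of all genes. It was Mrps16 (12-array limma adjusted p = 0.029), with 62.1, 46 and 41.5 in the chitosan group, against 94, 106 and 94.3 in the mock group. The glutathione and peroxide list was lower in 29 of 43 genes (median -0.07). Its 16 genes above the floor had a median of -0.60, but -0.24 without chitosan array 3, and the shifts of the 2 groups overlapped. Gsto1, a glutathione transferase of this list, had 1817, 1835 and 1469.5 in the chitosan group, against 2669, 3178 and 2815 in the mock group, with a log2 fold change of -0.76 (SE 0.15) and an adjusted p of 0.38 in limma on 6 arrays. Citrate cycle genes gave 13 lower and 15 higher, heat shock proteins 17 and 15, and proteasome subunits 16 and 13, with medians of 0.01, -0.01 and -0.01. Lists of immediate early genes and of the cell cycle had 0 genes at 2-fold and 0 called. With 36 and 45 measured genes, this is no different from the shares of all genes, 0.589% at 2-fold lower and 0.427% called lower.

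**Figure D4:**
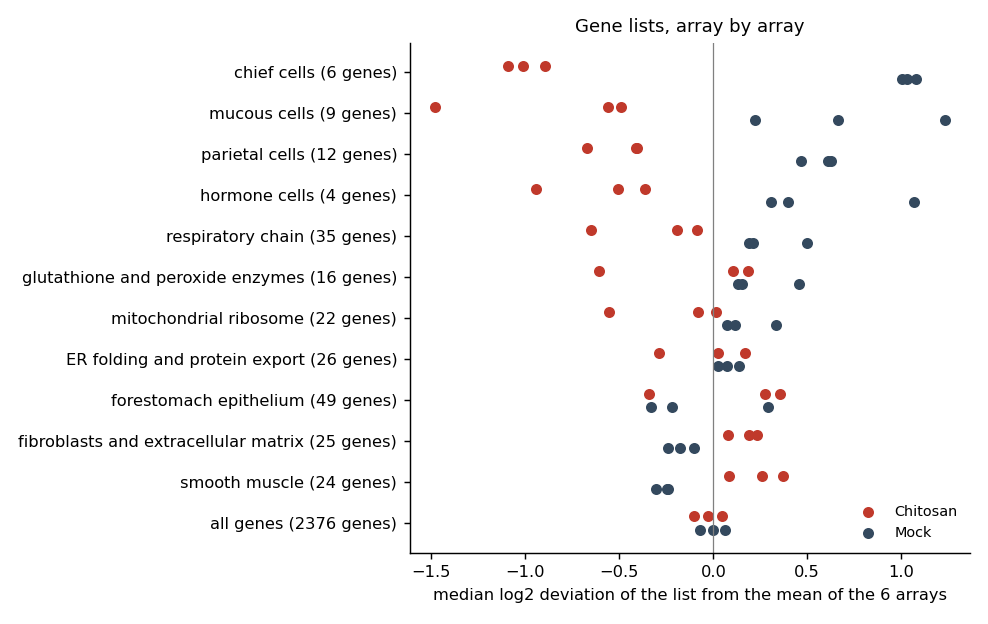
Median log2 deviation, from the mean of the 6 arrays, of the genes above the floor in each list (rows), with 1 point for each array and chitosan points above mock points. Chitosan and mock arrays separate for chief cells (-1.09 to -0.90 in the chitosan group, against 1.0 to 1.08 in the mock group), mucous and parietal cells and the respiratory chain, and in the other direction for smooth muscle, while forestomach and glutathione lists overlap.

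Most genes of the muscle coat were higher. Acta2, the smooth muscle actin, had 8985, 8985 and 6398 on the chitosan arrays, against 4953, 3951 and 4755 on the mock arrays, with a log2 fold change of 0.82 (SE 0.14). The other 3 probes of Acta2 gave 0.86, 0.54 and 0.16. It was not called (adjusted p = 0.27 in limma on 6 arrays and 0.61 over 12). Actg2 had 3951, 4102 and 2151 in the chitosan group, against 1835, 2037 and 1755 in the mock group, and Myh11, the smooth muscle myosin, had 1537, 2037 and 3105 in the chitosan group, against 1404, 684 and 1272 in the mock group. Every chitosan array was above every mock array for Actg2, Myh11 and the brightest probe of Acta2, whereas the groups overlapped on its other probes. Tpm1, a tropomyosin, had 462, 397 and 369 in the chitosan group, against 143, 206 and 173 in the mock group, and was the gene of the list called higher (12-array limma adjusted p = 0.032), against 0.0421% of all genes called higher. Of 38 measured smooth muscle genes 28 were higher and 10 lower (median 0.26), and 7 were higher without overlap and 3 lower, against 6.78% and 6.09% of all genes. The summed intensity of the list was 29265 to 30945 in the chitosan group, against 18078 to 20610 in the mock group, whereas that of the chief cell list was 2818 to 3644 in the chitosan group, against 7183 to 8633 in the mock group. Muscle and gland genes differed in opposite directions on the same arrays, and the part of a different proportion of muscle to gland in the tissue taken was not tested.

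Fibroblast and extracellular matrix genes were higher in 36 of 60 and lower in 24 (median 0.08), 11 higher without overlap and 3 lower, against 6.78% and 6.09% of all genes. The 25 above the floor had a median of 0.38, which was 0.18 without chitosan array 1. Col6a3, a chain of collagen VI, had 108, 102 and 76.1 in the chitosan group, against 50.6, 60.1 and 52.3 in the mock group (12-array limma adjusted p = 0.018), but its other 2 probes, both dim, gave -0.02 and -0.11. Endothelial genes, by comparison, gave 12 lower and 13 higher.

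Squamous genes of the forestomach were more often higher than lower, but the median shifts of the chitosan and mock arrays overlapped. Of 73 measured 47 were higher and 26 lower (median 0.10), 7 were higher without overlap and 7 lower, each close to the 6.78% and 6.09% of all genes. Of the 49 above the floor 36 were higher and 13 lower, where 50.8% of all genes above the floor were higher. The median of these 49 was 0.26 and ran from 0.09 without chitosan array 1 to 0.49 without chitosan array 3. Krt13, a keratin of the upper layers, had 13240.4, 13240.4 and 11242 in the chitosan group, against 8985, 8985 and 8985 in the mock group, a log2 fold change of 0.48 on steps of the deposited scale. Its second probe gave 0.57 with overlapping groups. Krt10, a keratin of cornifying cells, gave opposite directions on a pair of bright probes, -0.89 and 1.14. Mal, a membrane raft protein, had 59.4, 45 and 40.4 in the chitosan group, against 151, 157 and 149 in the mock group, with an adjusted p of 0.097 in limma on 6 arrays and 0.018 over 12. Aloxe3, a lipoxygenase of the epidermal barrier that is not on the list, was called higher, with 126, 136 and 129 in the chitosan group, against 67.3, 76.1 and 75.3 in the mock group (12-array limma adjusted p = 0.00087). Aqp3, a water and glycerol channel of basal epithelial cells and a member of the list, was called higher by the same model, with a log2 fold change of 0.71.

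The remaining higher genes belonged to no common list. Zmynd19, a zinc finger protein, had 384, 370 and 279 in the chitosan group, against 88.8, 100.2 and 93 in the mock group, with a log2 fold change of 1.86 (SE 0.38) and the smallest adjusted p among the higher genes in the limma model of 12 arrays (0.00067). Its second probe pointed the other way (-0.31), with 52.2, 47.9 and 129 in the chitosan group, against 111, 56.3 and 99.1 in the mock group. The spliceosome protein Snrpb had 845, 943 and 262 in the chitosan group, against 94.9, 249 and 88.6 in the mock group, with barely a gap between the groups, and its second probe gave -0.06. Eef2, the ribosomal translocase, was higher on both bright probes, 0.93 and 1.17, and on a dim one, 0.20. Dnajc6 (auxilin) and Hsd11b2, which inactivates glucocorticoids, were called higher by the 12-array limma model on 1 probe each, at 0.78 and 0.44. The other 2 probes of Dnajc6 gave 0.00 and 0.08 and the second probe of Hsd11b2 0.04, all dim and with overlapping groups. Bright probes of Rshl1 (a radial spoke head-like protein), Gnas (the stimulatory G protein) and Spag9 (a kinase scaffold), were higher by 2.29, 2.07 and 1.89 with wide spread, and dim second probes of Gnas and Spag9 gave 0.06 and 0.05. None of these was called in the stomach by the 12-array limma model (adjusted p = 0.27 for Rshl1 and 0.29 for Spag9). Rshl1 had 413, 936 and 1577 in the chitosan group, against 250.4, 106 and 195 in the mock group.

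**Figure D5:**
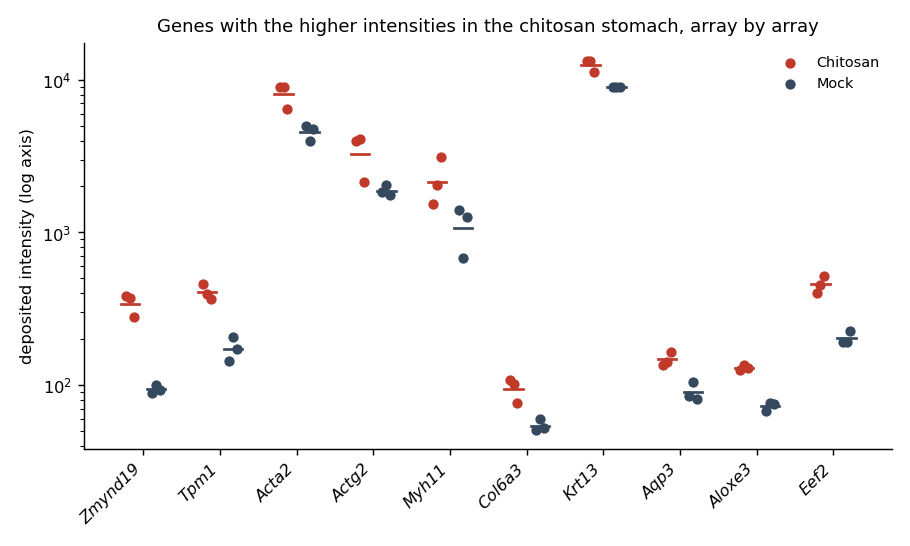
Intensity on each stomach array (log scale) of genes that were higher after chitosan, with chitosan arrays left of mock arrays and 1 point for each mouse. Zmynd19 lay at 279 to 384 in the chitosan group, against 88.8 to 100.2 in the mock group, and Acta2 at 6398 to 8985 in the chitosan group, against 3951 to 4953 in the mock group. Bars are means of the log values.

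Second probes were available for 11 of the 47 named genes that were 2-fold different whichever array was left out. They had the same sign in 6 of 11 and reached 2-fold in 0. Where the second probe was above the floor too, the sign was the same in 2 of 4, for Atp4a and Eef2, and opposite for Zmynd19 and Snrpb. Over all 107 genes with more than 1 probe above the floor, the brightest and the next probe had the same sign in 64 (59.8%), and in 25 of the 32 whose brightest probe was past 0.5 in size. The correlation of the 2 log2 fold changes across these genes was 0.37, as a description, because genes share arrays. Pgc, Ghrl, Agr2, Tff2 and most other gland genes thus rest on 1 probe each, seen on 3 mice against 3, while Atp4a, Elf3, Cd68, Cox6a1 and Acta2 do not. Both probes of Elf3 and of Cd68 were under the floor, however, and the 12-array limma model called only 1 probe of each. Acta2 was not called on its brightest probe.

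Some differences at 2-fold belonged to a single array. Pitpnb, a lipid transfer protein, had 28367 on chitosan array 3 and 46.6 to 50.8 on the other 5. Ralb, a small GTPase, was at 11242 on chitosan array 2, and Fem1a, a ubiquitin ligase adaptor, at 5637 on chitosan array 1. On mock array 1, Ywhab (a 14-3-3 protein) had 9824, Defb4 (a defensin) 6398 and Ccdc45 (a coiled-coil protein) 5637. Nos2, the inducible nitric oxide synthase, had 40.8, 43.9 and 41.5 in the chitosan group, against 730.2, 66.5 and 45.1 in the mock group, so its difference of -1.63 was -0.38 without mock array 1. Xpo4 (exportin 4) was higher by 1.28, with 488, 49.3 and 66.3 in the chitosan group, against 45, 47.3 and 52.3 in the mock group. Without chitosan array 1 the difference was 0.25, and its other probes gave 0.10 and 0.02.

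The chitosan effect in the stomach was set against that in the brain by the interaction term of the 12-array limma model. It called 68 probes lower (0.227%) and 7 higher (0.0234%) in the stomach than in the brain, and 50 of these 75 were among the 95 called in the stomach. The 75 became 14 without chitosan array 2, 48 without mock array 1 and 0 with the replicate number of the labels as a block. Most probes called in the stomach were at background in the brain. Ghrl had 47.8 to 53.3 in chitosan brains, against 48.9 to 60.8 in mock brains, and its interaction was -3.13 (SE 0.44, limma adjusted p = 0.019). The 75 also held probes that hardly differed in the stomach and had higher values in chitosan brains than in mock brains. Rshl1 and Spag9 were above background in the brain too, but with lower values in chitosan brains. Rshl1 had 114 to 412 in chitosan brains, against 1114 to 1817 in mock brains, opposite to its direction in the stomach. The interaction was 5.05 (SE 0.85, adjusted p = 0.039) for Rshl1 and 4.52 (adjusted p = 0.029) for Spag9 in the limma fit.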

How the data were processed

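The authors labelled stomach and brain RNA with Cy5, hybridized it to Mouse Whole Genome OneArrays (1 colour), quantified the spots in GenePix, took off the local background, dropped control spots and those whose signal-to-noise ratio was negative, and normalized with limma by a method and version not given in the sources used here. The deposited values are linear intensities. In 99.99% of them the intensity was a multiple of 1/24 (within 0.02 of a step), and heavy ties occur. Which dim values carry information is therefore limited, and background keeps dim fold changes near 0. Arrays yield no counts, so the number of arrays limits the precision. No per-sample column was left unused.

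Intensities were taken to log2 without further scaling. In R 4.3.3, limma 3.58.1 (lmFit, eBayes with an intensity trend) compared the 3 chitosan with the 3 mock stomach arrays. A model of all 12 arrays with 4 groups gave a second set of p values and the interaction of treatment and organ. The Benjamini-Hochberg adjustment covered all 29922 probes, with a threshold of 0.05. The scripts were tested on simulated data. Fold changes are differences of mean log2 values, 2-fold being 1, and each was recomputed without each array. "Without overlap" means that all 3 chitosan arrays lay on 1 side of all 3 mock arrays. Of the probes, 21020 carried 1 symbol and 8902 none in the platform annotation, and 3410 symbols were updated for matching to 41 gene lists. The brightest probe stood for its gene in the lists, and symbols follow the platform annotation.

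Genes were named by a rule: the 20 largest lower and 15 largest higher differences that held whichever array was left out without overlap, genes the study names for the stomach, up to 6 genes of each list above the floor with the smallest p, the 6 probes with the widest gap of 1 array, and the probes with the smallest adjusted p in the model of 12 arrays (15) and in the interaction (5 in each direction). Foxa1, Foxa3, Elf3, Cfd, Serpinc1, Hamp2, Mup3, Ly96, Tlr4, Cd68, Hsd11b2, Dnajc6, Kcnq1, Gkn1, Gast, Muc5ac, Fabp4 and Plin1 were given after their values were seen. The gene lists, the rule and the alternatives were chosen with earlier results of these data known, so no p value over a list is given.

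Alternatives were the methods' t-test, no intensity trend, median centring, quantile normalization, raising values to the 20th percentile, brighter probes only, other definitions of the fold change, the replicate number as a block and leaving out each array. The labels do not say if same-numbered arrays belong together. Deviations of same-numbered chitosan and mock arrays correlated at -0.43, 0.51 and 0.60, which is too few values to settle it.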

Additional observations from a re-analysis of the deposited data

Results flagged for a closer look

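The chitosan effect differed between stomach and brain for 75 probes in the interaction of the 12-array limma model. They numbered 14 without chitosan array 2, 48 without mock array 1 and 0 with the replicate number as a block. The values below are the log2 effect of chitosan in the stomach minus that in the brain for the genes named above that were among the 75 probes. Gland cell genes gave -3.20 for Pgc, -3.13 for Ghrl, -2.92 for Tff2, -2.62 for Agr2, -2.36 for Kcne2, -2.08 for Gif and -1.40 for Clic6. Plasma protein and lipid genes gave -2.25 for Apoa1, -2.04 for Alb, -1.39 for Pla2g12b, -1.25 for Lpl and -0.72 for Serpinc1. Genes of defence gave -1.06 for Pglyrp1, -1.03 for Ly96, -1.02 for S100a8 and -0.70 for Cd68. The transcription factors Foxa3 and Elf3 gave -1.02 and -0.89, Glod5 and Gsdma2 gave -2.69 and -2.06, and Mrps16 gave -1.40. Positive values were found for Rshl1 (5.05), Spag9 (4.52), Zmynd19 (2.05) and Aloxe3 (0.81). Most of the genes with negative values were near background in the brain, and Rshl1 and Spag9 were not. No group of 3 arrays was tested for an outlying array.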

How the results depend on the processing

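The count of 0 probes called by limma on 6 arrays became 95 with all 12 arrays, 29 without the intensity trend, 17 with low values raised, 4 with brighter probes only, and 0 to 3 when 1 array was left out. The methods' t-test gave 1792 probes at an unadjusted p under 0.05 (850 lower and 942 higher) and 3 after Benjamini-Hochberg. The 95 probes of the 12-array model numbered 50 to 124 with 1 array left out: 50 without chitosan array 2, 61 without mock array 1, and 124 without chitosan array 3 (72 lower and 52 higher). Of the 95, 46 were called in the full model and in all 6 models of 11 arrays. With the replicate number as a block the 12-array model called 44 probes, the 6-array fit 0 and the interaction 0. Whether the numbers pair the arrays is not settled. Probes at 2-fold numbered 141 to 249 with 1 array left out, with 242 lacking chitosan array 3 and 249 lacking mock array 2, and those differing between organs 14 to 97, with 14 lacking chitosan array 2 and 48 lacking mock array 1. The mean of same-numbered ratios gave 68 probes at 2-fold lower and 69 higher, against 118 and 38. Over all measured members rather than those above the floor, list medians were -0.28 for the respiratory chain, -0.20 for mucous cells and 0.26 for smooth muscle, against -0.57, -1.53 and 0.49. Of 888 values of 74 genes under the alternatives, 5 changed sign, each with 1 array left out: the log2 fold change ran from -3.58 to 0.0167 (without mock array 1) for Ccdc45, from -1.11 to 0.98 (without mock array 2, and 0.89 without chitosan array 3) for Gkn1, from -0.0142 (without chitosan array 3) to 4.61 for Pitpnb, and from -0.0689 (without chitosan array 2) to 3.83 for Ralb. The signal over background limits the rest, as 9.78% of the probes lay above the floor.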
